A study of Mus musculus with 8 samples.

Results

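Of the 64462 regions obtained by merging the peaks of the 6 H3K9ac lists where they shared at least 1 bp, 312 held a peak in both *GFI1-KD* lists and none in the *GFI1-36S* or *-36N* lists. These regions made up 0.484% of all merged regions and 1.44% of the 21655 regions with a peak in both *GFI1-KD* lists. The regions were chosen by the authors' peak calls, so their number and the fold enrichment and q-values of their peaks are descriptions. The location, the neighbouring genes and the sequence were not used to choose the regions.

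H3K9ac ChIP-seq was done on frozen BM cells (whole BM by the labels) of C57BL/6 mice, all carrying the *NUP98-HOXD13* transgene, a leukaemia-associated fusion that gives the mice a disease similar to myelodysplastic syndrome. *GFI1-36S* and *-36N* mice expressed the human GFI1 variants of those names, and *GFI1-KD* mice had reduced GFI1 expression. In each genotype 1 group received 20 mg/kg curcumin weekly by i.p. injection and the other received the vehicle DMSO. Each of the 6 groups had 1 library, and the lists are not normalized to each other, so differences between groups were not tested and carry no p-value. The study's text also names c-kit+ cells for these data, which the labels do not. The sources used here do not state how many mice went into a library or their age. In the deposited lists' names, *GFI1-36N* vehicle appears as heterozygous and *GFI1-36N* curcumin as homozygous, which the sample labels do not give, and the treatments of the *GFI1-36S* lists are swapped relative to the labels. The swap does not bear on which regions were chosen, since a peak in any of these 4 lists removed a region.

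Acetylation of histone H3 at this lysine marks active promoters and enhancers, where it keeps chromatin open and is bound by proteins that promote transcription. GFI1 is a zinc finger repressor of blood cells that brings histone deacetylases and the demethylase LSD1 to its target genes, among them genes of monocyte differentiation and of the HOX program. It binds DNA at sites with the core AATC, which reads GATT on the opposite strand.

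The sequences at 7 of the regions are given here as examples of what the *GFI1-KD* lists alone marked. They come from the RefSeq GRCm38.p6 (mm10) assembly, read on the + strand around the peak summit. The first 4 belong to the top 2 promoter regions and the top 2 regions outside promoters, ordered by the lower of their ranks in the *GFI1-KD* lists. The last 3, chosen after their values were seen, hold the extended letters AATCNCNGC without repeat-masked bases. Capitals mark AATC or its reverse complement GATT, and the whole extended match where there is one. The *Plcb1* sequence was moved by 238 bp from the summit to lie outside the annotated UTR, and it starts with the first coding exon.
Plcb1 promoter, chr2:134786533-134786732: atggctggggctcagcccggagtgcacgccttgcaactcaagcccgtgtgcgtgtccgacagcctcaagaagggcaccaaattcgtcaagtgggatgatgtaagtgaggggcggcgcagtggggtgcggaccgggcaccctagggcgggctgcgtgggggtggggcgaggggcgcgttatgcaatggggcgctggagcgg
Snx7 promoter, chr3:117869095-117869294: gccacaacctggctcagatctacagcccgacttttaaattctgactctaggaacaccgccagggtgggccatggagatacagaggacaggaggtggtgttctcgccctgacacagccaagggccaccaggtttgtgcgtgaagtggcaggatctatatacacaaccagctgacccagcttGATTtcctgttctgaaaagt
Fpr3 intron, chr17:17910003-17910202: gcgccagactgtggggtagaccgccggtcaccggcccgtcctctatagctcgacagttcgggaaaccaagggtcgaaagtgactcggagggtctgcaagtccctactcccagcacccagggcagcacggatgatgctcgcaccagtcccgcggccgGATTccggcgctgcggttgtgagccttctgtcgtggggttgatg
Upstream of Erap1, chr13:74617525-74617724: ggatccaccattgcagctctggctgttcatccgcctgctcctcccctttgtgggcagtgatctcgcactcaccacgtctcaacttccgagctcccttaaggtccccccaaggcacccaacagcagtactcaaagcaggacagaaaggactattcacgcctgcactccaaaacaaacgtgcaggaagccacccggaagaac
Upstream of Pabpc6, chr17:9765031-9765230: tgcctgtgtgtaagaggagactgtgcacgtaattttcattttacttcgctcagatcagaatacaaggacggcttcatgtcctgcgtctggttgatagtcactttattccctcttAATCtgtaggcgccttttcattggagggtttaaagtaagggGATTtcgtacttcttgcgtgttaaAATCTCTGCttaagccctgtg
Upstream of Pik3r1, chr13:101812175-101812374: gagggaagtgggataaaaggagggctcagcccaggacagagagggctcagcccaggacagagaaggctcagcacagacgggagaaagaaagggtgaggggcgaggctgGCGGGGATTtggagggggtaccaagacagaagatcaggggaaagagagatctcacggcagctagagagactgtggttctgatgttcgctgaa
Upstream of Adamtsl4, chr3:95702261-95702460: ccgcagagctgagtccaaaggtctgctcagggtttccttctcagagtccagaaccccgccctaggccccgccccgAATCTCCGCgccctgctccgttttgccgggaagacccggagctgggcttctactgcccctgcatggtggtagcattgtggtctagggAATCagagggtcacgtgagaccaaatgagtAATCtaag

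The sequences differ in base composition. The printed *Plcb1* bases were 67.5% GC with 17 CpG and no AATC, while the 200 bases at its summit, not printed because they overlap a UTR, were 72.5% GC with 25 CpG and did hold the core, and the *Fpr3* intron held 64.5% GC with 18 CpG. The *Snx7* promoter had 53.0% GC and 4 CpG, and its AATC core lay on the opposite strand. The *Pabpc6* sequence, at 43.5% GC, held 3 cores, of which 1 was part of the extended match.

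The lists differed in size, and 1 library stood apart. There were 39272 peaks with vehicle and 30784 with curcumin in *GFI1-KD*, 20354 in *GFI1-36S* curcumin and between 39564 and 49213 in the other 3. In the *GFI1-36S* curcumin list, 1 of 18 neutrophil genes had a promoter peak, against 10 to 17 in the other lists, and 3 of 18 stem and progenitor genes, against 15 to 17. It had a peak at 14 of 16 T-cell promoters, against 7 to 9. Without this list the rule gave 315 regions, 23.5% of them at promoters. The other 5 lists had promoter peaks at 14 or 15 of 15 monocyte and macrophage genes and 8 to 20 of 20 erythroid genes, with the lowest erythroid number in *GFI1-KD* curcumin. The number of fragments relative to the control was 1.19 and 1.1 in *GFI1-KD* vehicle and curcumin, and between 0.95 and 1.12 in the other libraries. Depth relative to the control and the marker promoters with a peak thus differed between the libraries, and their part in the choice of the regions was not tested. In BM of mixed cell types, more cells of a type and more acetylation per cell cannot be told apart.

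The same rule applied to the other genotypes gave 1513 regions (2.35%) for the *GFI1-36N* lists and 115 (0.178%) for the *GFI1-36S* lists. When each list was cut to its 20354 strongest peaks by −log10 p, the numbers were 261 for *GFI1-KD*, 243 for *-36N* and 94 for *-36S*. The *GFI1-KD* number was below that of *-36N* with all peaks and above it with equal lists.

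Most of the 312 regions carried weak and narrow peaks. The median fold enrichment at the summit, the ratio of fragments to the local background, was 3.71 in *GFI1-KD* vehicle (quartiles 3.3 to 4.53, range 2.12 to 21.6) and 3.82 in curcumin (3.49 to 4.46, range 2.03 to 27.7). The medians over all regions with a peak in both *GFI1-KD* lists were 9.04 and 8.13. Ranked from 0 to 100 by fold enrichment among the peaks of their own list, the regions had a median rank of 32.6 with vehicle and 22.7 with curcumin. Only 15 of 312 (4.81%) lay over rank 50 in both lists, against 13258 of 21655 (61.2%) of the regions of both *GFI1-KD* lists. The summit held a median of 26 fragments with vehicle and 23 with curcumin. The regions were 462 bp wide at the median (quartiles 352 to 632, range 211 to 2054), against 519 bp for all merged regions and 1535 bp for those of both *GFI1-KD* lists. The wider sets can merge peaks of up to 6 lists. Within a list, the strongest peak of a region had a median width of 362 bp with vehicle and 304 bp with curcumin. For all regions of both *GFI1-KD* lists these widths were 1216 and 886 bp. The regions of the same rule were 440 bp wide in *GFI1-36N* and 458 bp in *GFI1-36S*. Weak and narrow peaks were thus not particular to *GFI1-KD*. In all 312 the vehicle and curcumin peaks overlapped, which follows from merging only peaks that share bases. The median overlap was 240 bp.

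Fold enrichment was higher in the curcumin list at 166 of the 312 regions, and the median ratio of curcumin to vehicle was 1.04. Over all 21655 regions of both *GFI1-KD* lists, 7699 (35.6%) were higher with curcumin, with a median ratio of 0.908. Lists are not normalized to each other, and by rank 103 of the 312 regions stood higher in the curcumin list and 209 lower, so the direction depended on the scale. Regions with wide gaps between the libraries went either way. An intron of *Nav3*, coding for a neuron navigator protein, had 3.62 with vehicle and 12.7 with curcumin, and *Tslp*, coding for a cytokine of epithelial cells, had 9.31 with vehicle and 4.15 with curcumin at its promoter. Both were chosen after their values were seen.

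**Figure D1:**
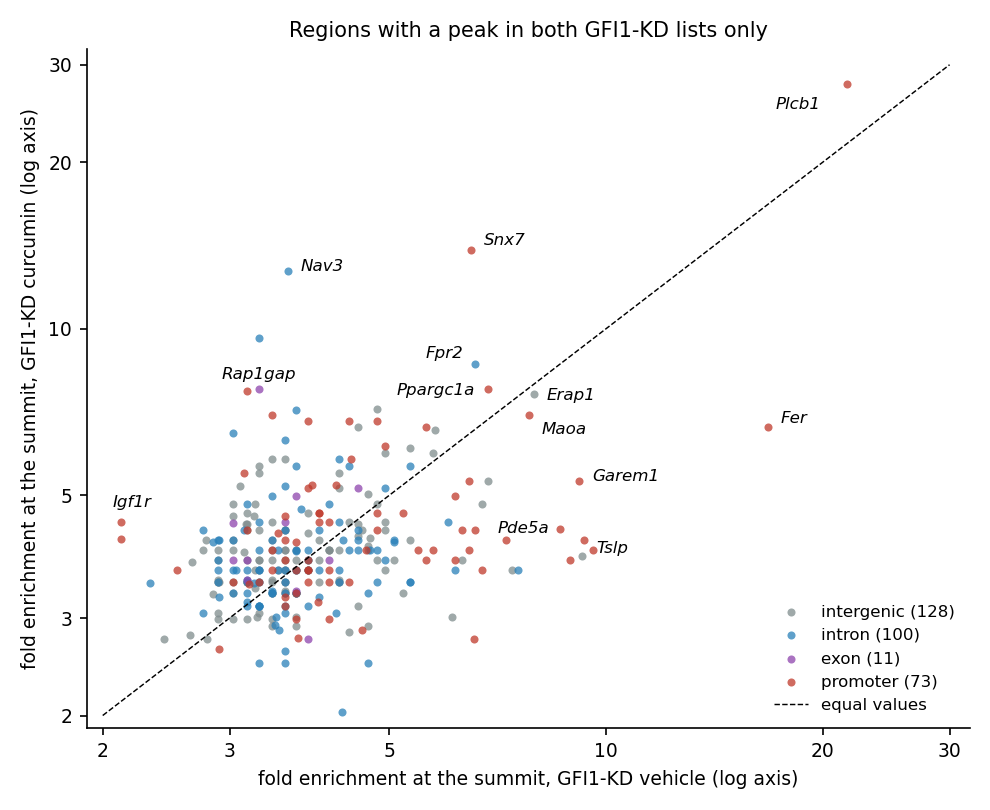
Fold enrichment at the summit of each of the 312 regions in *GFI1-KD* vehicle (horizontal, log axis) and *GFI1-KD* curcumin (vertical, log axis), coloured by location; the dashed line marks equal values. Most points lie near the medians of 3.71 and 3.82, and *Plcb1* alone exceeds 10 in both lists.

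The membership threshold ran through regions of like strength. The promoter of *Igf1r*, the receptor of insulin-like growth factor, was among the weakest members by q, with a fold enrichment of 2.12 and a −log10 q of 1.56 with vehicle. On the other side, 626 regions had a peak in both *GFI1-KD* lists and in 1 other list. Of these, 270 were listed in *GFI1-36N* curcumin, 249 in *GFI1-36N* vehicle, 104 in *GFI1-36S* vehicle and 3 in *GFI1-36S* curcumin. Without the *GFI1-36N* vehicle list the rule gave 584 regions and without the *GFI1-36N* curcumin list 601. The medians of the 626 in the *GFI1-KD* lists were 3.85 and 3.82, beside 3.71 and 3.82 for the members. The weakest peak that kept a region out was in an exon with *Cd101*, coding for a membrane protein of myeloid and T cells, as the nearest gene, with a −log10 q of 1.48 in *GFI1-36N* curcumin. The promoter of *Clasp2*, coding for a microtubule plus-end protein, was kept out by a *GFI1-36N* vehicle peak with a −log10 q of 1.66. Its *GFI1-KD* peaks had a fold enrichment of 4.26 and 5.81.

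The regions lay mostly away from promoters. A promoter, taken as 1 kb on each side of a TSS of a protein-coding gene, was overlapped by 73 of the 312 (23.4%, Wilson 95% interval 19.0% to 28.4%, counting error only). Introns held 100 (32.1%, 27.1% to 37.4%), exons 11 (3.53%, 1.98% to 6.2%) and intergenic DNA 128 (41.0%, 35.7% to 46.6%). Among all merged regions 27.0% were at promoters, 40.2% in introns and 28.8% intergenic. Against regions of the same kind in *GFI1-36N*, of which 10.4% (8.94% to 12.0%) were at promoters and 47.1% in introns, the *GFI1-KD* regions were more often at promoters and less often in introns. For *GFI1-36S* the promoter share was 14.8% (9.44% to 22.4%), an interval that overlaps that of *GFI1-KD*, and the intron share 53.0% (44.0% to 61.9%). Among the regions of both *GFI1-KD* lists, 53.6% were at promoters. The median distance of a region to the nearest TSS was 9630 bp, and 29 regions (9.29%) were over 100 kb away, compared with 5.15% of all merged regions. For the regions of the same kind, the median distance was 9591 bp in *GFI1-36N* and 9996 bp in *GFI1-36S*. Of these, 6.15% and 7.83% were over 100 kb away, and 37.3% and 28.7% were intergenic. Regions are not replicates of a genotype, so the intervals say nothing of the spread between mice.

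**Figure D2:**
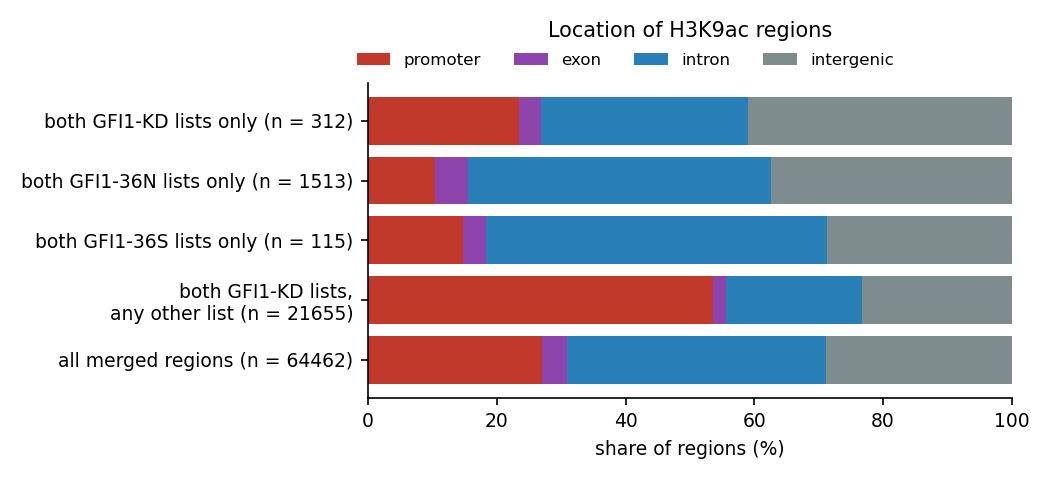
Share of regions (%) at promoters, in exons, in introns and between genes for the 312 regions of both *GFI1-KD* lists only, for the regions of like pattern in *GFI1-36N* and *-36S*, for all regions of both *GFI1-KD* lists and for all merged regions. The promoter share is 23.4% in the first bar and 10.4% in that of *GFI1-36N*.

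Many regions sat beside acetylation that other libraries shared. A region of another pattern lay within 1 kb of 143 of the 312 (45.8%), within 5 kb of 62.5% and within 50 kb of 85.6%, with a median gap of 1711 bp. For the 1513 *GFI1-36N* regions the shares were 47.7%, 71.9% and 96.4%. The 45 regions with no other region within 50 kb differed in location. Of these, 24 (53.3%, Wilson interval 39.1% to 67.1%) were promoters, compared with 22 of 143 (15.4%, 10.4% to 22.2%) of those within 1 kb. Among the isolated regions of *GFI1-36N*, 3 of 55 (5.45%, 1.87% to 14.9%) were promoters. Isolated promoter peaks were thus a larger share of the *GFI1-KD* regions than of the *-36N* regions, with 1 library per group behind each list.

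**Figure D3:**
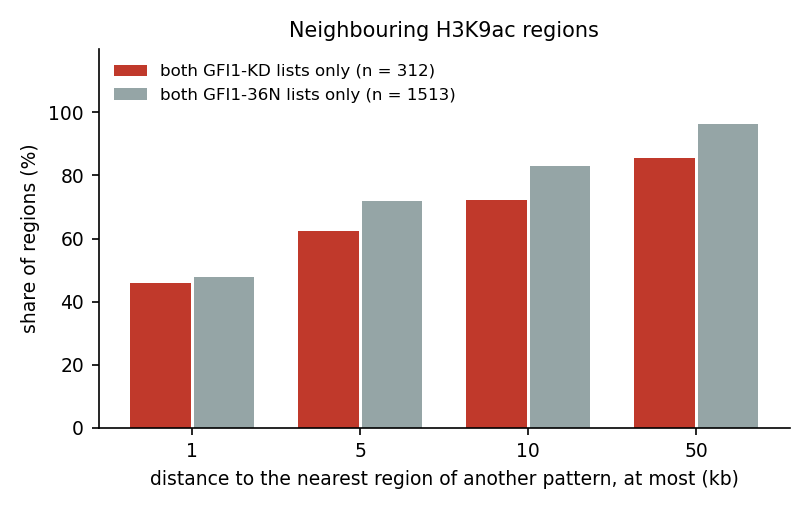
Share (%) of the 312 *GFI1-KD* regions and of the 1513 *GFI1-36N* regions that have a region of any other pattern within 1, 5, 10 or 50 kb. The bars are nearly equal at 1 kb (45.8% and 47.7%) and stand at 85.6% and 96.4% at 50 kb.

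Genes with a promoter region numbered 75, or 0.342% of the 21911 protein-coding genes. For 41 of them no region of another pattern reached the promoter, so that these promoters had a listed peak in the *GFI1-KD* libraries alone. The other 34 had further H3K9ac at the same promoter. The strongest region of all was the promoter of *Plcb1*, which codes for a phospholipase C that releases the messengers IP3 and diacylglycerol. Its fold enrichment was 21.6 with vehicle and 27.7 with curcumin, with 157 and 166 fragments at the summit and a width of 2054 bp (chr2:134785522-134787575). It was the widest of the regions, and no other region of the set exceeded 10 in both lists. In *GFI1-36S* and *-36N* no peak was listed at this promoter, and the nearest region of another pattern lay 20636 bp away.

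The promoter of *Fer*, coding for a cytoplasmic tyrosine kinase, had 16.8 with vehicle (122 fragments) and 6.64 with curcumin (39 fragments), and the region also touched the promoter of *A930002H24Rik*. The promoter of *Snx7*, coding for a sorting nexin, had 6.5 with vehicle (53 fragments) and 13.9 with curcumin (83 fragments), with no other region within 637916 bp. These promoters had the higher value in opposite libraries of the pair. *Pde5a*, coding for the cyclic GMP phosphodiesterase, had the second widest region (2032 bp), with 8.63 and 4.35. The promoter of *Rap1gap*, coding for an inactivator of the small GTPase RAP1, was 1800 bp wide with 3.17 and 7.71. An intron of *Agpat4*, coding for an enzyme of phospholipid synthesis, held a region of 1612 bp with 6.04 and 4.48.

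The other 7 of the top 10 promoters belonged to genes of varied function. *Ppargc1a*, coding for the coactivator PGC-1α of mitochondrial genes, had 6.86 with vehicle and 7.79 with curcumin, and its nearest neighbour lay 275429 bp away. *Maoa*, the monoamine oxidase A gene on the X chromosome, had 7.81 and 6.97 and lay 514 bp from a region of another pattern. *Matn3*, coding for a cartilage matrix protein, had 4.81 and 6.8. *Ido1*, whose product degrades tryptophan, had 4.94 and 6.14. *Rasa2*, coding for a RAS GTPase-activating protein, had 5.63 and 6.64, *Fut10*, coding for a fucosyltransferase, 4.43 and 5.81, and *B630019K06Rik* 4.4 and 6.8. On the fold enrichment scale, 6 of these 7 were higher in the curcumin list, and by rank within the list 3 of 7 were, so no direction is read from them.

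Further isolated promoters, chosen after their values were seen, included *Cyp7b1*, an enzyme of oxysterol and bile acid metabolism (6.72 and 3.66), *Adamts5*, a protease of cartilage aggrecan (6.45 and 3.99), *Fzd1*, a WNT receptor (5.76 and 3.99), and *Lpar4*, a receptor of lysophosphatidic acid (5.22 and 4.65). All 4 were higher with vehicle, and at the summit they held between 37 and 48 fragments with vehicle and between 21 and 27 with curcumin. The isolated promoters of *Snx7*, *Ppargc1a*, *Ido1* and *B630019K06Rik* had the higher fold enrichment with curcumin, so no direction is read from these picked promoters.

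Outside promoters, the highest region by rank was in an intron of *Fpr3*, 22214 bp from the TSS of *Fpr2*. Both genes code for formyl peptide receptors of phagocytes. Its fold enrichment was 6.58 with vehicle and 8.62 with curcumin. A region 21944 bp upstream of *Erap1*, coding for an aminopeptidase that trims peptides for MHC class I, had 7.95 and 7.63. A region 207900 bp from the TSS of *Agtpbp1*, coding for a tubulin deglutamylase, had 5.79 and 6.56, and a second nearby had 4.67 and 5.03. Near *Plk2*, a polo-like kinase gene, the values were 4.81 and 7.16 at 163442 bp. The region near *Plk2* was the 1 of these whose rank was also higher in the curcumin list, while the ranks of those at *Fpr3*, *Erap1* and *Agtpbp1* (the stronger region) were higher with vehicle.

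Upstream of *Id3*, coding for an inhibitor of basic helix-loop-helix factors, 2 regions were found, at 20600 bp with 4.53 and 6.64 and at 26111 bp with 6.86 and 5.31. The first was stronger with curcumin and the second with vehicle. Regions with 5.76 and 5.97 lay 20620 bp from *Bicd1*, a dynein adaptor gene, with 5.35 and 6.1 near *Pabpc6*, from a family of poly(A)-binding proteins, with 4.94 and 5.97 near *Lrrc28*, with 5.35 and 5.64 in *Card19* and with 4.4 and 5.64 in *Fmnl2*, a formin gene that acts on actin. In all, the 312 regions had 287 different nearest genes, and 22 genes were nearest to 2 or more regions. Another member lay within 50 kb of 43 of the regions. *Pde1a*, *Fbxl2* and *Spdye4c* were each nearest to 3 regions, named after their values were seen.

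Genes known to be repressed by GFI1 were not among the genes of these regions. Of the 22 on this list, 0 were the nearest, promoter or host gene of a region, where 1.39% of all protein-coding genes were. The list includes the microRNA genes *Mir21a* and *Mir196b*, which could not be counted here because only protein-coding genes were assigned to regions. Within 100 kb of a region lay 1 of the 22, *Nab2*, a corepressor of EGR factors, at 41.7 kb from a region in *Lrp1*, where the share over all protein-coding genes was 4.86%. The median distance from a gene of the list to the nearest region was 2969 kb. With 22 genes or fewer, the share of 1.39% corresponds to less than 1 gene, so a count of 0 does not set the list apart from other genes.

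Most promoters of the list had a peak in lists of the other genotypes. Promoter peaks were listed for 11 of 22 in all 6 lists, and for 21 in *GFI1-KD* vehicle, 20 in *GFI1-KD* curcumin, 20 in *GFI1-36S* vehicle, 12 in *GFI1-36S* curcumin, 21 in *GFI1-36N* vehicle and 19 in *GFI1-36N* curcumin. *Gfi1* itself, which represses its own gene, had a promoter fold enrichment of 10.9 and 15.7 in *GFI1-36S* vehicle and curcumin, 9.63 and 16.8 in *-36N* and 13.3 and 13.6 in *-KD*. The *GFI1-KD* values lay within the range of the others. The study's text places the human cDNA of *-36S* and *-36N* in the murine locus. The gene itself was thus altered in these mice, and nothing is read from these values about GFI1 repressing its own gene. *Spi1*, coding for the myeloid factor PU.1, had 43.6 and 41.2 in *GFI1-KD*, 35.5 and 33.2 in *-36N*, and 32.4 and 5.52 in *-36S*. Both *GFI1-KD* values were above the other 4. *Egr1*, an immediate early gene, had 22.7 and 25.0 in *GFI1-KD* and between 4.63 and 16.0 in the others, and here too both were above the other 4. These were the 2 genes with this order among the 20 on the list with a promoter peak in both *GFI1-KD* lists. Over all genes with such peaks the order was found for 1735 of 11191 (15.5%), so the share on the list was not above the background.

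Some regions at GFI1-repressed genes missed the pattern by 1 list. The promoter of *Meis1*, a HOX cofactor and leukaemia gene, had a peak in *GFI1-KD* vehicle (6.31) and curcumin (7.96) and in *GFI1-36N* vehicle (7.19), and in no other list. These peaks merged into a region of 2410 bp, which the *GFI1-36N* vehicle peak kept out. The same list kept out a region with *Id2* as its nearest, promoter or host gene, and *GFI1-36N* curcumin kept out such a region for *Gfi1*. Unlike *Meis1*, both genes had a promoter peak in all 6 lists. *Hoxa9*, the HOX gene most tied to leukaemia, had 6.17 in *GFI1-KD* vehicle, 41.9 in *GFI1-KD* curcumin, between 37.6 and 47.1 in *GFI1-36S* vehicle and both *GFI1-36N* lists, and none in *GFI1-36S* curcumin. Outside *GFI1-KD* vehicle, *Hoxa3* and *Hoxa7* had the same values as *Hoxa9*. These peaks merged into a region of 20602 bp, so the values are not particular to the *Hoxa9* promoter. In *GFI1-KD* vehicle, *Hoxa3* had 5.3 and *Hoxa7* had 10.4. On the wider list of HOX genes and cofactors, 0 of 46 were the nearest, promoter or host gene of a region, which at 1.39% of all protein-coding genes does not set the list apart. A promoter peak was listed for 16 in *GFI1-KD* vehicle and 20 in curcumin.

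**Figure D4:**
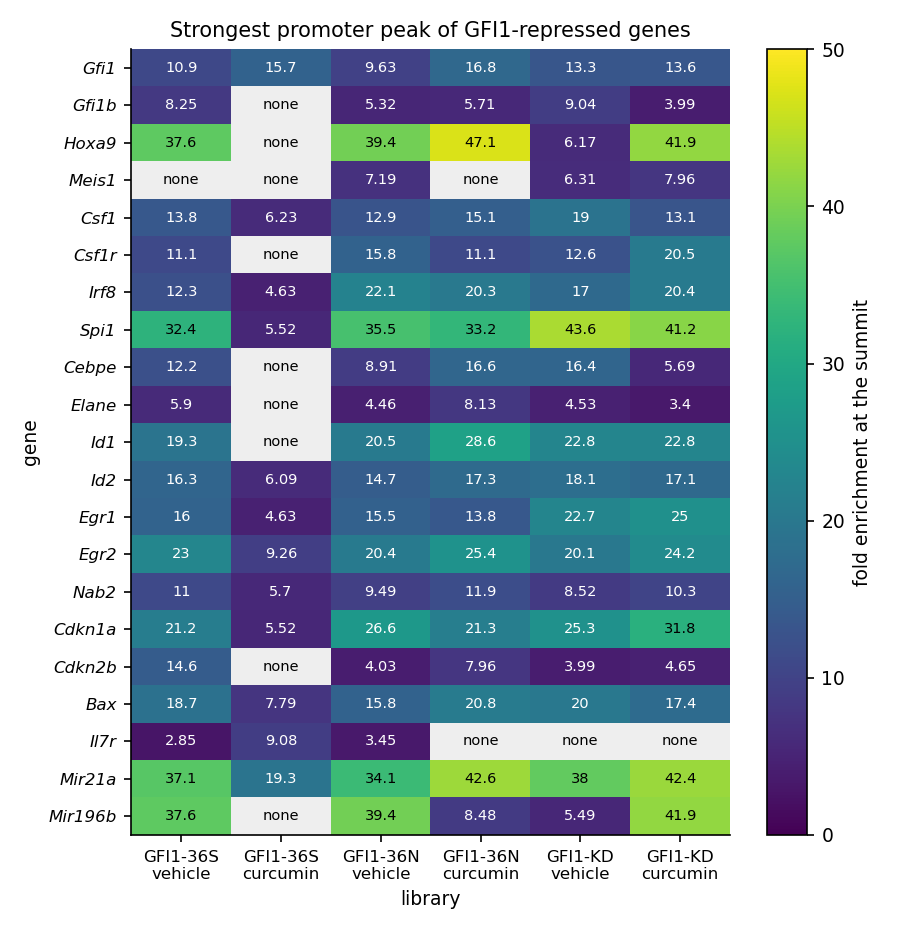
Fold enrichment at the summit of the strongest promoter peak of 21 of the 22 GFI1-repressed genes (rows) in each of the 6 libraries (columns), on a colour scale from 0 to 50, with grey for no listed peak. No drawn row is filled in both *GFI1-KD* columns alone; *Meis1* is filled in those and in *GFI1-36N* vehicle (7.19).

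The GFI1 corepressor genes, which include the deacetylases and LSD1, had 0 of 12 at a region, where the share over all protein-coding genes was 1.39%, and all 12 had a promoter peak in every list. The marker lists for BM cell types gave 2 genes in all. An intron of *Ltf*, the lactoferrin gene of neutrophils, held a region with 3.71 and 5.64, for 1 of 18 neutrophil genes. A region 13057 bp from *Cd14*, a monocyte receptor gene, had 2.78 and 4.15, for 1 of 15 monocyte and macrophage genes. None of the stem and progenitor, erythroid, megakaryocyte, mast cell, T-cell, B-cell, dendritic and NK cell or stroma lists had a gene at a region, from 12 to 20 genes in a list. At a share of 1.39%, lists of this size are too short for 0 or 1 gene to set them apart.

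By chromosome, 11 of the 312 regions (3.53%) were on X, compared with 2.3% of the regions of both *GFI1-KD* lists and 1.53% of all merged regions. Of the 11, 7 were promoters. Chromosome 15 held 2 (0.641%) and chromosome 14 held 4 (1.28%), against 4.86% and 3.49% of all merged regions. The share of peaks on chromosome 15 itself differed between the lists. It was 2.95% and 3.26% in *GFI1-KD*, 2.97% in *GFI1-36S* vehicle, 6.41% in *GFI1-36S* curcumin, and 4.6% and 5.17% in *-36N*. The part of these shares in the low number of regions on chromosome 15 was not tested.

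**Figure D5:**
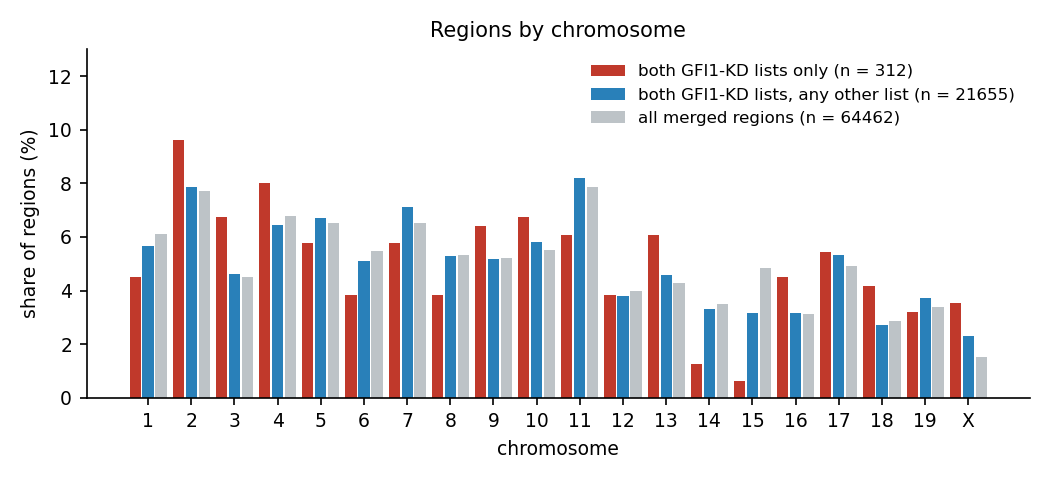
Share (%) of the 312 regions of both *GFI1-KD* lists only, of all regions of both *GFI1-KD* lists and of all merged regions on each chromosome. Chromosome X holds 3.53%, 2.3% and 1.53%, and chromosome 15 holds 0.641%, 3.15% and 4.86%; chromosome Y held none of the 312 and is not drawn.

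In GC content the regions were close to all merged regions and below those of both *GFI1-KD* lists. The 200 bases around the summit had a median GC content of 50.2%, against 50.5% for all merged regions and 56.5% for those of both *GFI1-KD* lists. Fewer of the 73 promoter regions were CpG-rich than in the wider sets of promoter regions. With a GC content of at least 55% and a CpG observed over expected ratio of at least 0.65, 23 (31.5%) were CpG-rich, against 59.8% of the promoter regions of both *GFI1-KD* lists and 45.2% of all merged promoter regions. For promoter regions of like pattern the share was 15.3% in *GFI1-36N* and 23.5% (4 of 17) in *GFI1-36S*. The 23 include *Plcb1* and *Fer*, whose summits were 72.5% and 76.0% GC, but not *Snx7*. Of all 312 regions 8.65% were CpG-rich, against 13.5% of all merged regions and 34.1% of those of both *GFI1-KD* lists. The share was 2.45% for the *GFI1-36N* regions and 5.22% for those of *GFI1-36S*. Repeat-masked bases made up 13.5% on average, and 13.4% over all merged regions.

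The GFI1 core AATC, on either strand, was found in 196 of 312 regions (62.8%), compared with 59.2% of all merged regions, 64.8% of the *GFI1-36N* regions and 49.6% of those of both *GFI1-KD* lists. The extended letters AATCNCNGC, which contain the core, were found in 12 (3.85%), against 3.1%. The printed *Pabpc6*, *Pik3r1* and *Adamtsl4* sequences are 3 of these. The letters AGATAA of GATA factors were in 8.97% (8.17% of all merged regions), TGTGGT of RUNX factors in 12.8% (14.4%), GAGGAA of PU.1 in 19.9% (20.2%), TTGCNNAA of C/EBP factors in 7.69% (6.97%) and TGACAG of MEIS factors in 14.1% (14.4%). TGANTCA of AP-1 was in 7.37% (5.0%), CAGCTG, an E-box, in 13.8% (12.9%), and TGATTNAT of HOX-PBX, which contains GATT and so overlaps the GFI1 core, in 2.56% (1.77%). All were searched on both strands, and a match of letters is a description, not a binding site.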

How the data were processed

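According to the study's methods and the submitters' processing notes, adapters were trimmed from the H3K9ac reads (Trim Galore), which were then aligned to mm10 (BWA-MEM). Peaks were called by library (MACS2) and those in ENCODE black list regions removed. SAMtools, Picard and deepTools are also named, and versions are not given in the sources used here. The deposited lists hold the fold enrichment at the summit (a ratio of fragments to local background), the −log10 of p and of q, and an integer score, as the authors' peak caller wrote them. None is normalized between libraries. The input and IgG samples were not used here.

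Peaks of the 6 lists were merged where they shared at least 1 bp (Python 3.11.15, numpy 2.4.6, pandas 2.3.3, scipy 1.17.1, pysam 0.24.0, matplotlib 3.10.9). For a region, the strongest peak of each list was used. Gene models came from GENCODE release M21 and sequence from GRCm38.p6. Fragments at each summit, and the depth relative to the control, were solved from fold enrichment and p, to within 0.002 of the −log10 p, for 98.6% or more of a list. The scripts were tested on simulated data. Intervals cover counting error only.

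The named genes are the 10 promoter and 10 other regions with the highest lower rank, the 5 widest regions, and regions of the gene lists. Others are marked, and a few are not reported here. Members and lists were chosen with earlier results of these data known. The alternatives were other q thresholds, equal numbers of peaks, merging within 1000 bp, an overlap criterion, each other list left out in turn, a promoter window of 3 kb and a summit window of 400 bases. No test was run, since each group has 1 library, the regions have no value in the other 4 lists by the rule, and the lists are not normalized to each other.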

Additional observations from a re-analysis of the deposited data

How the results depend on the processing

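The number of regions, 312, depended on the other lists and on merging. Leaving out each of the 4 other lists in turn gave 315 to 601 regions, with 584 without *GFI1-36N* vehicle and 601 without *GFI1-36N* curcumin. With peaks within 1000 bp merged it was 194, and 127 when both *GFI1-KD* peaks had to reach a −log10 q of 5. In the same 2 settings the promoter share was 29.9% and 35.4% and the median width 609 and 570 bp. The promoter share was 33.7% with a window of 3 kb and 18.2% to 25.5% with 1 list left out. With a −log10 q of at least 5 in the *GFI1-KD* lists only, the intergenic share was 34.6% and the median fold enrichment 4.53 with vehicle and 4.27 with curcumin. With that threshold in all lists, the intergenic share was 32.9%, the width 543 bp, the fold enrichment 4.26 and 4.27, and 1 GFI1-repressed gene, *Id2*, was at a region. With equal numbers of peaks, the width was 814 bp and the fold enrichment 5.35 and 5.05. With 1 list left out, 0 to 2 GFI1-repressed genes were at a region, namely *Id2* and *Meis1* without *GFI1-36N* vehicle and *Gfi1* without *GFI1-36N* curcumin. The share over all protein-coding genes (1.39%) was taken for the 312 regions only. These counts thus have no background for their own sets of regions, and nothing is read from them about the list. In windows of 400 bases, the GC content was 49.2%, and AATC was found in 86.2% and the extended letters in 9.62%. Over all merged regions the 400-base values were 49.5%, 82.1% and 6.09%. AATC was in 87.0% of the *GFI1-36N* regions of like pattern and 82.6% of those of *GFI1-36S*. The extended letters were in 6.74% and 1.74% of these. Both shares were higher than with 200 bases in each of these sets. Of 77 values under alternatives, the values given above for the regions and those of the lists left out made up the 26 that moved, and 51 did not. A count was called moved past a set ratio to the main count, and a share or median outside the interval of the main value. The 422 regions without *GFI1-36S* vehicle were therefore not called moved. The causes were not tested, beyond the longer window or the smaller number of lists.

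No paired analysis was possible because the results are counts, shares and medians over regions that come from no test, and each group has 1 library. The summits hold few fragments (medians of 26 and 23), and a peak just under the threshold in another list is not seen in these files.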
